A study of Homo sapiens with 4 samples.

Results

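The aldehyde dehydrogenases described here are 10 genes of the family, ALDH1A1, ALDH1A2, ALDH1A3, ALDH1B1, ALDH2, ALDH3A1, ALDH3A2, ALDH3B1, ALDH7A1 and ALDH9A1, out of 19775 genes on the array that had a probe set of their own. A probe set is the group of short DNA probes that together give 1 signal for a transcript. The 10 genes were represented by all 19 probe sets whose platform annotation gave that gene symbol and no other. The genes were chosen with their signals on all 4 arrays already known, so their levels and differences are given as a description and without a test. RNA was measured in A549, a human lung adenocarcinoma line, and in NCI-H358, which comes from a human bronchioloalveolar carcinoma. Both had been stably transduced and selected with antibiotic. The groups were A549 with a CHST11 vector, A549 with an empty vector, NCI-H358 with a CHST11 vector and NCI-H358 with an empty vector, each with 1 array. CHST11 is a Golgi enzyme that adds sulfate to chondroitin chains, and the study asked what its vector changed in each line. The sources used here do not give the vector's promoter or the number of transduced clones.

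Aldehyde dehydrogenases oxidise aldehydes to carboxylic acids with NAD or NADP as the electron acceptor. The ALDH1A enzymes make retinoic acid from retinaldehyde, ALDH2 and ALDH1B1 act in mitochondria on acetaldehyde and other small aldehydes, and the ALDH3 enzymes clear medium- and long-chain aldehydes that arise from lipids. Aldehyde dehydrogenase activity is widely used to sort stem-like cells from tumours, lung tumours included, and ALDH1A1 is a main contributor to it.

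The signals had similar medians on the 4 arrays, from 15.9 to 16.31. Across probe sets, which are not replicates, log2 signals gave r = 0.9961 within A549, 0.996 within NCI-H358 and 0.9378 to 0.9389 between the lines. CHST11 was 2.66-fold higher with its vector in A549 and 4.8-fold higher in NCI-H358 by the probe set 219634_at, while the other 2 CHST11 probe sets lay between log2 -0.16 and 0.14. CDKN2A, a cell cycle inhibitor gene that A549 is known to have lost, had signals of 23.95 and 18.42 in A549 with CHST11 and with the empty vector, against 804.3 and 668.4 in NCI-H358. All 6 epithelial markers, among them KRT8, KRT18 and EPCAM, passed the signal filter given below. Of the markers of other cell types, 4 of 6 leukocyte, 1 of 6 fibroblast and 1 of 5 endothelial genes passed it, the highest being COL1A1 with signals of 152.5 to 170.2, and PTPRC, DCN, LUM and CDH5 did not. With CHST11 the marker ratios past 1.5-fold were EPCAM at log2 -0.77 and the leukocyte gene CD14 at log2 0.67, both in A549. Since each value came from a whole culture, fewer cells expressing a gene and less RNA per cell cannot be told apart.

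Of the 10 genes, 9 passed a filter on dim signals, 27 on at least 1 array, which was the 60th percentile of all values. In A549 all 9 were above it and in NCI-H358 8 were. By a rule of size, every array of a line at least 2-fold above every array of the other, 5 were higher in A549 (ALDH1A1, ALDH3A1, ALDH2, ALDH3B1 and ALDH7A1), against 9.88% of all 12288 measured genes, and 1 was higher in NCI-H358 (ALDH1A3), against 10.2%. The remaining 3 (ALDH1B1, ALDH3A2 and ALDH9A1) differed by less. Because the members were picked with these values in view, nothing is read from those shares.

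**Figure D1:**
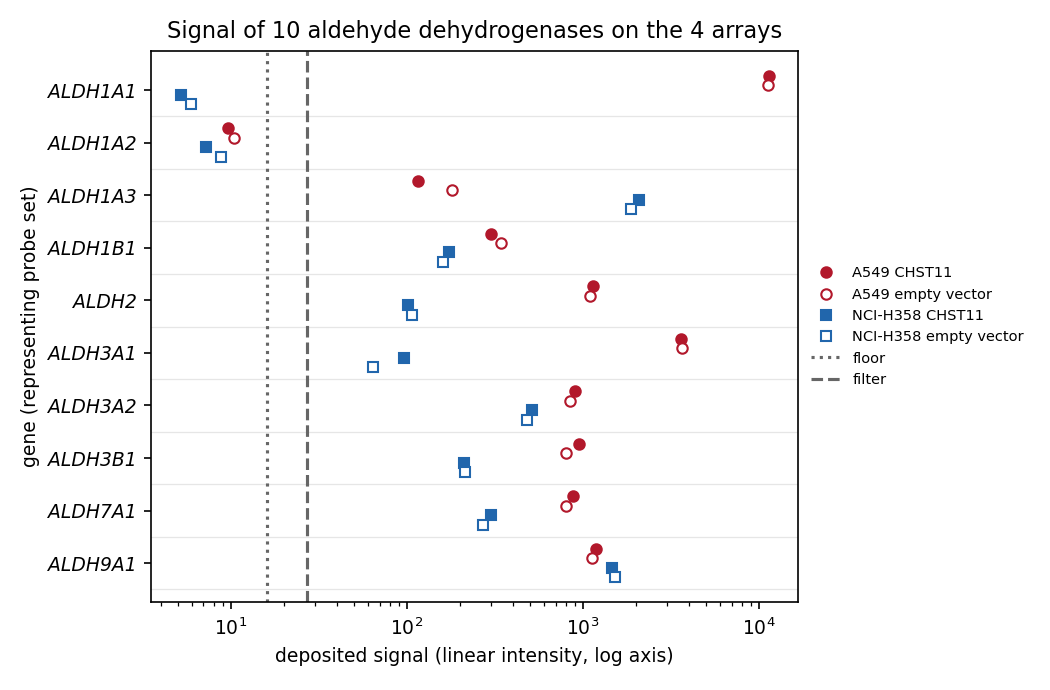
Deposited signal of each of the 10 aldehyde dehydrogenases on the 4 arrays, on a log axis, with A549 as red circles and NCI-H358 as blue squares, filled for the CHST11 vector and open for the empty vector. The dotted line is the floor of 16.14 and the dashed line the filter of 27. ALDH1A1 stands at 11346 and 11162 in A549 and under the floor in NCI-H358, ALDH1A3 is the reverse in direction, and the vectors of a line lie close together beside these gaps.

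The retinaldehyde dehydrogenases ALDH1A1 and ALDH1A3 stood at opposite ends. ALDH1A1 (probe set 212224_at) is a cytosolic enzyme that contributes to the activity read in stem cell assays. Its signals were 11346 in A549 with CHST11 and 11162 in A549 with the empty vector, against 5.21 and 5.99 in NCI-H358. Both NCI-H358 arrays lay under the floor of 16.14, the median of all values, below which signals were not ordered. The gene was therefore at least 697-fold higher in A549. ALDH1A3, the isoform that makes retinoic acid in several epithelia, went the other way, with 116.1 and 180 in A549 with CHST11 and with the empty vector, against 2082 and 1877 in NCI-H358 (203180_at). That was a log2 difference of A549 minus NCI-H358 of -3.77 (SE 0.203), or 13.7-fold lower in A549. Among the 11262 genes above the floor on all arrays, it had the 26th largest difference in favour of NCI-H358. Its second probe set, 1558649_at, was under the floor on both A549 arrays at 9.79 and 8.91, against 39.65 and 42.4 in NCI-H358. The direction was the same in that probe set, at least 2.54-fold lower in A549. ALDH1A2, the embryonic isoform, was not measured: its 2 probe sets had signals of 7.26 to 10.5 on the 4 arrays, all under the floor. So of the 3 ALDH1A genes, A549 showed a high signal of ALDH1A1 with a low one of ALDH1A3, and NCI-H358 a signal of ALDH1A3 alone.

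The 250 bases upstream of the annotated starts of ALDH1A1 and ALDH1A3 are shown because these genes had opposite differences, with capitals marking the CCAAT box (CCAAT), the TATA box (TATAAA) and the GC box (GGGCGG) on either strand. They are RefSeq sequences of build GRCh38.p14, 5′ to 3′ on the gene's own strand, at chr9:72953054-72953303 (minus strand) for ALDH1A1 and chr15:100879581-100879830 (plus strand) for ALDH1A3.
ALDH1A1: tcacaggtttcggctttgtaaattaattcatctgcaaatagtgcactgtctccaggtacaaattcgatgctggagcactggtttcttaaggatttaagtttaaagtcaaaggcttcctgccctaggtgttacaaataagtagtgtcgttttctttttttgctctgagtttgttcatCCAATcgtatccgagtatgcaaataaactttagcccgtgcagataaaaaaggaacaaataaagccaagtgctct
ALDH1A3: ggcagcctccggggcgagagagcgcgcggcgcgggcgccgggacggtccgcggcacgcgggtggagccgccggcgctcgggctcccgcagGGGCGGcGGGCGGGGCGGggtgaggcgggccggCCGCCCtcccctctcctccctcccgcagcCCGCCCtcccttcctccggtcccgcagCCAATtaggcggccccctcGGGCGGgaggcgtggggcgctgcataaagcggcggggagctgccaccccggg
The ALDH1A1 window had 38.4% G and C, 6 CG pairs, 1 CCAAT and no GGGCGG. The ALDH1A3 window had 82.4% G and C, 38 CG pairs, 1 CCAAT and 6 GGGCGG matches, of which a pair overlap. Of 35116 RefSeq promoter windows of this length, 10.8% had no more G and C than ALDH1A1, 1.44% had at least as much as ALDH1A3, and the median was 58%. With both strands searched, CCAAT was found in 32% of all windows and GGGCGG in 42.6%. TATAAA, found in 10.7%, and TGACNNNGC, the core of the element that NRF2 binds, found in 10.9%, were in none of the 11 windows of the 8 members with an entry. GCGTG, the core of the element of the aryl hydrocarbon receptor, was found in 32.2% of all windows, in the ALDH1A3 window at 2 places, and in 1 window each of ALDH1A2 and ALDH3A2. ALDH2 and ALDH3A1 had no entry. These matches describe letters in a window and say nothing about binding.

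The mitochondrial enzymes were higher in A549 too, but by unequal amounts. ALDH2, the main acetaldehyde-oxidising enzyme, had signals of 1146 and 1097 in A549 with CHST11 and with the empty vector, against 101.5 and 106.8 in NCI-H358 (201425_at). This was log2 3.43 (SE 0.0926) or 10.8-fold. Among the 11262 genes above the floor on all arrays, it was the 58th largest difference in favour of A549. ALDH1B1, its close mitochondrial relative, had 299.2 and 341.8 in A549, against 172.9 and 159.9 in NCI-H358 (209646_x_at). Its log2 difference was 0.94 (SE 0.113), just under the 2-fold size, and its other probe set 209645_s_at stood at 1.64-fold. An x suffix marks a probe set that may also pick up related sequences and an s suffix one that may pick up several transcripts.

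Among the ALDH3 enzymes, ALDH3A1, known from cornea and stomach and raised in many lung tumours, had the widest gap between lines that could be measured on both sides. Its signals were 3598 and 3659 in A549 with CHST11 and with the empty vector, against 95.85 and 63.92 in NCI-H358 (205623_at). The log2 difference was 5.53 (SE 0.167), or 46.4-fold, the eighth largest in favour of A549 among the 11262 genes. ALDH3B1, which oxidises lipid-derived aldehydes at membranes, had 952.7 and 800.6 in A549, against 211.7 and 214.8 in NCI-H358, 4.1-fold higher in A549 (205640_at). The probe sets of this gene did not all show that: 211004_s_at was 2.28-fold higher in A549, but 1565731_at had 66.33 and 62.42 in A549, against 69.15 and 62.72 in NCI-H358. By the median of its probe sets ALDH3B1 stood at log2 0.99 and did not pass 2-fold. ALDH3A2, the fatty aldehyde dehydrogenase of the endoplasmic reticulum, had 903.9 and 845.3 in A549, against 511 and 480.7 in NCI-H358 by its brightest probe set 202053_s_at, a 1.76-fold difference. Its other 2 probe sets, 202054_s_at and 210544_s_at, gave 3.39-fold and 2.4-fold, so whether it passed 2-fold depended on the probe set.

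The members with roles in amino acid and amine breakdown were split. ALDH7A1, also called antiquitin, which acts in lysine breakdown, had 876.7 and 798.7 in A549 with CHST11 and with the empty vector, against 302.2 and 271.6 in NCI-H358 (208950_s_at), 2.92-fold higher in A549. A second probe set, 208951_at, gave 2.65-fold, and 213591_at was under the filter on all 4 arrays. ALDH9A1, which oxidises aminobutyraldehyde and takes part in carnitine synthesis, differed least: 1190 and 1124 in A549, against 1465 and 1519 in NCI-H358 (201612_at). Its log2 difference was -0.37 (SE 0.0925), or 1.29-fold lower in A549.

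**Figure D2:**
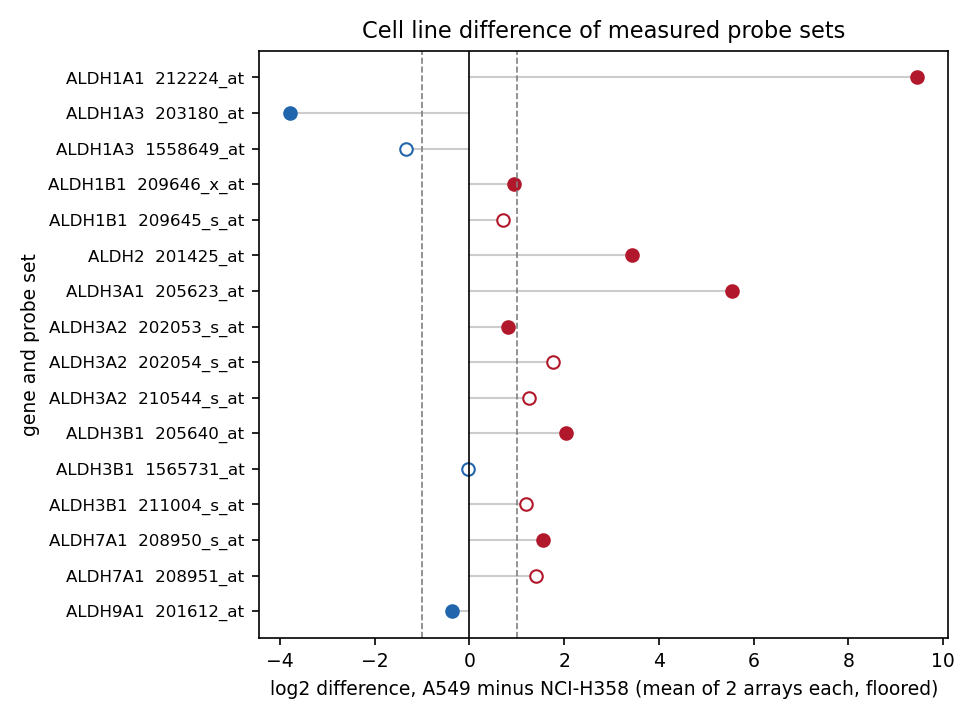
Log2 difference, A549 minus NCI-H358, of the 16 aldehyde dehydrogenase probe sets above the filter, with filled points for the probe set that represents the gene and dashed lines at 2-fold. Points run from -3.77 for ALDH1A3 to 9.45 for ALDH1A1, which is a lower bound, and in ALDH3B1 the probe set 1565731_at lies near 0 while the other 2 lie above 1.

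In the 5 members with more than 1 measured probe set, all probe sets had the same sign between lines in 4, with ALDH3B1 the exception. As a gauge of this scatter, the SD of the line difference between probe sets of the same gene was log2 0.503 over 5577 genes, and the differences of ALDH9A1 and of the ALDH3B1 probe set 1565731_at were smaller than that. The signals of the A549 arrays did not overlap those of the NCI-H358 arrays in any measured member, 7 with A549 higher and 2 with NCI-H358 higher. Over all measured genes the arrays did not overlap with A549 higher in 40.8% and with NCI-H358 higher in 44.9%, so that separation of the lines was common. The SEs above are those of a limma fit with terms for line and vector, 1 residual degree of freedom, and its calls at a Benjamini-Hochberg adjusted p of 0.05 covered 64.6% of genes. All 9 measured members were among its calls, and nothing is read from that.

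Ratios between the 2 vectors in A549 were small for most aldehyde dehydrogenases. No member differed at least 2-fold, a size that 0.114% of the 11452 genes measured there reached, and 1 of 9 differed at least 1.5-fold, against 1.21% of all genes. That gene was ALDH1A3, at 116.1 with CHST11, against 180 with the empty vector, or 1.55-fold lower (log2 -0.63). With the median of its probe sets in place of the brightest, the log2 ratio was -0.32 and no member passed 1.5-fold. The SD of log2 ratios between probe sets of the same gene was 0.158 in this line, which the ratio exceeded. The second ALDH1A3 probe set was under the floor in A549 and gave no ratio. With 1 array per group, the spread between cultures was not measured. The arrays also differed in the signal from the 3′ against the 5′ end of a control transcript, with a log2 gap of 1.10 with CHST11 and 1.40 with the empty vector for GAPDH. For the control transcript ACTB the gap was 1.09 with CHST11 and 1.26 with the empty vector. The part of these differences in the ALDH1A3 ratio was not tested.

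Of the other members in A549, ALDH3B1 was the highest, at 952.7 with CHST11, against 800.6 with the empty vector (log2 0.25). Its probe set 211004_s_at gave log2 0.51, with 156.3 with CHST11 and 109.9 with the empty vector, and 1565731_at gave 0.09. ALDH1B1 had log2 -0.19, with 299.2 with CHST11 and 341.8 with the empty vector, but its second probe set stood at 0.04. ALDH3A2 had 0.10, 0.09 and 0.39 by its 3 probe sets. ALDH1A1, ALDH2, ALDH3A1, ALDH7A1 and ALDH9A1 had log2 ratios of 0.02, 0.06, -0.02, 0.13 and 0.08, all inside the probe set SD. In all, 6 of the 9 measured members lay within that SD, and their median ratio was 0.06, against 0.01 over all genes.

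In NCI-H358 no member differed at least 1.5-fold between vectors, where 1.19% of 11401 genes did, and 0.0351% of genes differed at least 2-fold. ALDH3A1 came nearest, with 95.85 with CHST11, against 63.92 with the empty vector, a ratio of 1.4996 and a log2 ratio of 0.58. The other 7 members measured there lay within the probe set SD of 0.173 by their representing probe sets. ALDH3A1 had a single probe set, so its ratio could not be set beside another. In A549 the same gene had log2 -0.02. ALDH1A3, abundant in this line, had 2082 with CHST11, against 1877 with the empty vector (log2 0.15), and 39.65 against 42.4 by its dim probe set (log2 -0.10). ALDH7A1 had log2 0.15 and 0.03 by its 2 probe sets, and ALDH1B1 had 0.11 and -0.01. ALDH2 and ALDH9A1, with 1 probe set each, had -0.07 and -0.05. ALDH3A2 had 0.09, -0.08 and -0.19 by its 3 probe sets, the last beyond that SD. ALDH3B1 had -0.02 by its representing probe set and 0.14 and 0.11 by the other 2. ALDH1A1 was under the floor with either vector, so no ratio was given. The median over the 8 members was 0.10, against 0.00 over all genes. The 3′ against 5′ gap of GAPDH was 1.13 with CHST11 and 1.09 with the empty vector in this line. For the control transcript ACTB it was 1.21 with CHST11 and 1.04 with the empty vector.

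**Figure D3:**
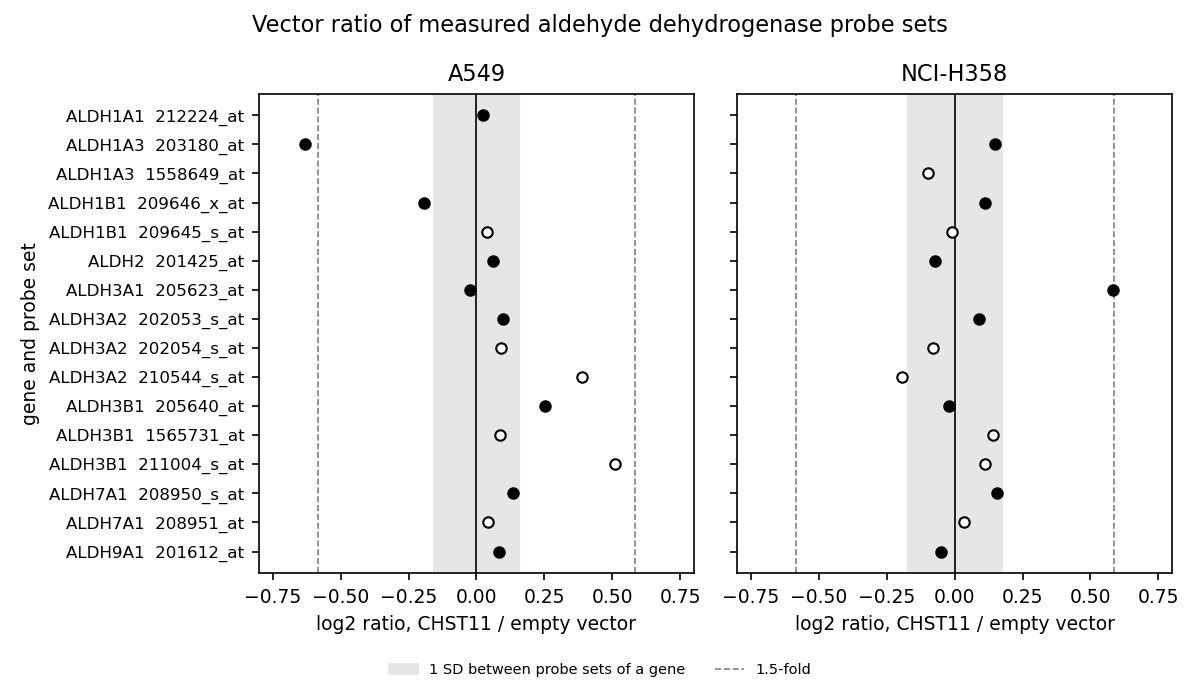
Log2 ratio of CHST11 over empty vector for each aldehyde dehydrogenase probe set measured in A549 (left) and in NCI-H358 (right), filled where the probe set represents the gene. Grey bands are 1 SD between probe sets of a gene, 0.158 and 0.173, and dashed lines mark 1.5-fold. Only the A549 point of ALDH1A3 lies past 1.5-fold, and ALDH3A1 in NCI-H358 lies at the line.

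Of the 8 members measured in both lines, 6 had vector ratios of opposite sign, against 52.3% of the 10565 genes measured in both. In 4 of them the ratios were also apart by more than the joint probe set SD of 0.234, against 24.2% of those genes. With both lines taken as replicates of the vector contrast, the shared log2 differences of the members ran from -0.24 (SE 0.203) for ALDH1A3 to 0.28 (SE 0.167) for ALDH3A1. Over all 12288 genes the limma count past a Benjamini-Hochberg adjusted 0.05 was 0 (0%), and 373 genes (3.04%) were under 0.05 before adjustment. With a trend on intensity these counts were 0 and 331 (2.69%).

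A list of 9 other genes of the family was set beside the members. It was chosen with earlier results of these data known, so its calls and p are given as a description. ALDH8A1 was under the filter. Of the 8 measured, limma called 4 higher in A549 and 1 higher in NCI-H358, and 3 were not called, against 30.6% and 34% of all genes. Higher in A549 was ALDH4A1, a mitochondrial enzyme of proline breakdown, at log2 0.78 (limma adjusted p = 0.00435). Its signals were 70.14 and 60 in A549 with CHST11 and with the empty vector, against 36.46 and 39.15 in NCI-H358. ALDH1L2, a mitochondrial folate enzyme, had 28.01 and 26.45 in A549, against values under the floor in NCI-H358 (at least log2 0.75 higher). Also higher in A549 were ALDH16A1 (log2 0.47) and ALDH18A1, which starts proline synthesis (log2 0.38). ALDH3B2, which lies on the same chromosome as ALDH3B1, ran against it by the probe set 204942_s_at. That probe set was under the floor in A549 at 11.54 and 7, against 52.44 and 51.84 in NCI-H358 (log2 -1.69 as a bound). The other ALDH3B2 probe set, 204941_s_at, was under the floor on all 4 arrays. In ALDH1L2 and ALDH3B2 the floor set both arrays of a line to the same value, so their scatter was not measured. No p is given for them, and their calls carry that limit. ALDH1L1, ALDH5A1 and ALDH6A1 had log2 differences of -0.11, -0.29 and -0.16 and were not called. By other measured probe sets ALDH1L1 had -0.68 (205208_at) and ALDH6A1 had 0.13 (204290_s_at) and 0.00 (221588_x_at). The median over these 8 genes was 0.13, against 1.55 over the 9 measured members and -0.03 over all genes. The gap between these medians was not tested, since the members had been picked by their values. None of these 8 differed at least 1.5-fold with CHST11, with ratios of -0.15 to 0.23 in A549 and -0.15 to 0.39 in NCI-H358.

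Genes around the retinoic acid step were mixed. Of 15 measured genes of retinoid supply and response, limma called 6 higher in A549 and 5 higher in NCI-H358. Of the 15, 14 passed the filter in A549 and 12 in NCI-H358. Over all genes it called 30.6% higher in A549 and 34% higher in NCI-H358, shares that apply to the lists below too. The lists were chosen with earlier results of these data known, so their counts are a description. A gene that passed the filter in 1 line alone was likely to stand higher there. Calls of genes under the floor on both arrays of a line carry the limit given for ALDH1L2 and ALDH3B2. RARB, a retinoic acid receptor and a known retinoic acid target, had 174.8 and 178.7 in A549 with CHST11 and with the empty vector, against 24.17 and 14.72 in NCI-H358, at least log2 3.16 higher. RBP4, the plasma carrier of retinol, was at least log2 3.16 higher in A549 as well. CRABP2, which carries retinoic acid to the nucleus, was lower in A549, with 61.81 and 62.8, against 3547 and 3414 in NCI-H358 (log2 -5.80), and the receptor RARG had -0.96. Alcohol dehydrogenases, which supply aldehydes, were mostly unmeasured: of 9 genes of ethanol oxidation 3 passed the filter, with catalase (CAT) higher in A549 (log2 1.01) and ADH5 (-0.66) and ADH1C (-1.60, a bound) higher in NCI-H358.

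Enzymes that reduce aldehydes instead were mostly higher in A549. Of 9 measured aldo-keto and carbonyl reductases limma called 8 higher in A549 and 0 higher in NCI-H358, with a median log2 difference of 2.24. AKR1B10 was at least log2 9.02 higher and AKR1C2 log2 7.62, while AKR7A2 and AKR7A3 stood at 0.37 and 0.24, the last not called. All 16 measured NRF2 antioxidant targets were called higher in A549, with a median of 1.31. The lowest were TXNRD1, thioredoxin reductase, at 0.64 and ME1 at 0.67. The highest were ABCC2 at 5.25 or more and GPX2, a glutathione peroxidase, at 7.59 or more. All 16 passed the filter in A549, but 14 in NCI-H358, which favoured calls higher in A549. ABCC2 had both NCI-H358 values set to the floor, so the limit on such calls applies to it. Genes of the aryl hydrocarbon receptor had a median of -1.04: of 8, limma called 5 higher in NCI-H358 and 1, NQO1 (0.90), higher in A549. All 8 passed the filter in NCI-H358 and 5 in A549, so the filter favoured calls higher in NCI-H358. AHRR, the receptor's repressor, had -2.13, CYP1B1 -2.04 and the receptor AHR itself -0.20, not called.

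Of 8 measured genes listed around fatty alcohols and sphingolipid aldehydes, 7 were called higher in A549 and 1 higher in NCI-H358, with a median of 1.12. All 8 passed the filter in A549 and 5 in NCI-H358, so the filter favoured calls higher in A549. PHYH, which hydroxylates branched fatty acids, had log2 3.58, CYP4F3 at least 2.35, FAR1, a fatty acyl-CoA reductase, 0.47 and SPHK1, a sphingosine kinase, -1.22. Of 9 measured genes of lysine, proline, choline and polyamine breakdown or synthesis, 6 were called higher in A549 and 1 higher in NCI-H358, with a median of 0.41, SAT1 at 1.53, DHTKD1 at 1.20, PYCR3 at -0.07 and AADAT at -1.66. Of 7 measured genes used beside aldehyde dehydrogenase assays as stem cell or luminal markers, 3 were called in each direction, with a median of 0.00, CD44 at 1.99 and THY1 at 0.68 on the A549 side and ITGA6 at -1.23 and KLF4 at -2.58 on the other. Leaving the cell type markers aside, 3 ratios of listed genes passed 1.5-fold with the vector, CYP1A1 at log2 -0.96 and AKR1B10 at 0.89 or more in NCI-H358, and CYP4F11 at -0.75 in A549.

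**Figure D4:**
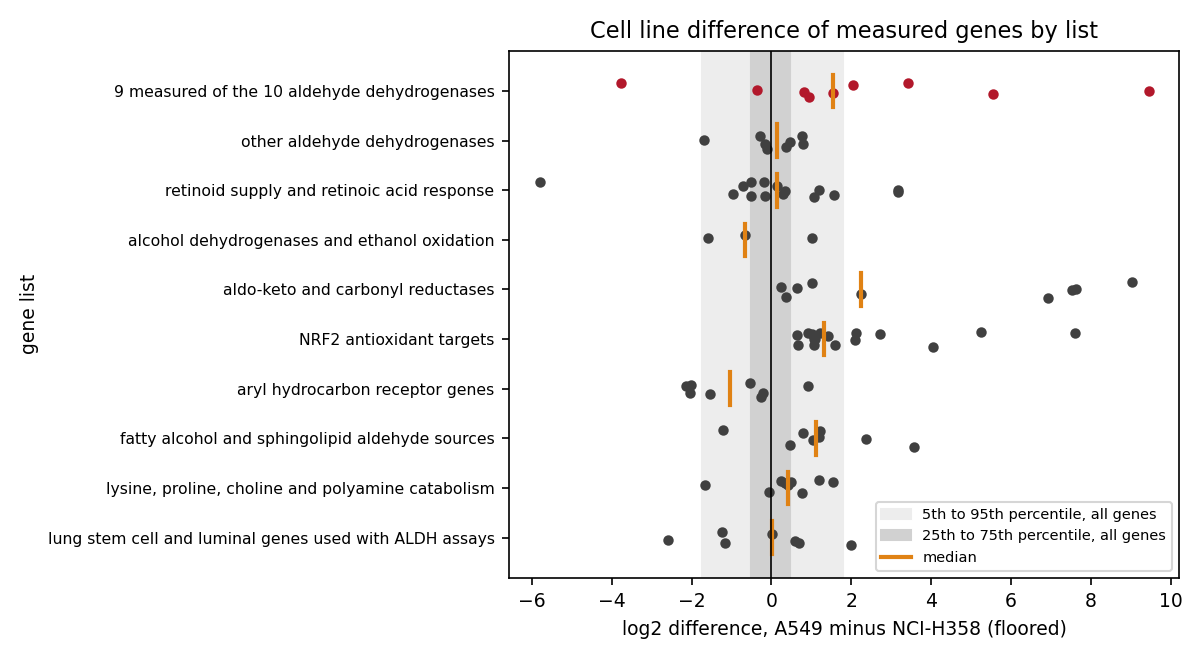
Log2 difference, A549 minus NCI-H358, of the measured genes of each list, with 1 point per gene, the median as an orange bar and the spread of all 12288 genes as grey bands. The aldehyde dehydrogenases (red) reach beyond both bands on either side, and the aldo-keto reductases and NRF2 targets lie above 0 throughout.

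By distance over the 4 log2 signals after removing each gene's mean, the genes with a pattern most like that of ALDH1A1 were AKR1B10 (distance 0.762), NTS, neurotensin (1.25), and BEX3 (1.71), all with at least 1 NCI-H358 array under the floor. Those most like ALDH3A1 were CSGALNACT1, an enzyme that starts chondroitin chains (0.403), ABTB3 (0.415) and SLC16A4, a transporter (0.417). ABTB3 and SLC16A4 were under the floor on both NCI-H358 arrays, where ALDH3A1 had 95.85 and 63.92. Their distances therefore depend on the value of the floor. CSGALNACT1 had 1525 and 1147 in A549 with CHST11 and with the empty vector, against 34.87 and 28.67 in NCI-H358. With 4 arrays, this likeness reflects the gap between lines and little else.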

How the data were processed

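RNA of 4 cultures was hybridised to 1-colour Affymetrix arrays with 54675 probe sets. The authors deposited linear intensities, made with MAS5 per the submitters' processing notes. The sources used here give no version, scaling target or later step. Values were floored at 16.14, the 50th percentile, and log2 was taken. Of the 41091 probe sets annotated to 1 gene, the brightest by mean log2 stood for each of 19775 genes, which was measured when it reached 27 on at least 1 array. The platform annotation named the genes, and 1801 probe sets with several symbols named none. With 1 array per group, vector ratios within a line had no test. For the line and shared vector differences, limma 3.58.1 (lmFit and eBayes, R 4.3.3) had terms for line and vector and a prior of 3.53 degrees of freedom. The fit was also run on 20 simulated data sets with 200 changed genes each. These held no values set to the floor, unlike the real data, and nothing is read from them. Python 3.11.15, NumPy 2.4.6, pandas 2.3.3 and matplotlib 3.10.9 did the rest. The number of arrays limits the precision.

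The members and gene lists were chosen with earlier results of these data known. The text names all members, all other aldehyde dehydrogenases on the list, CHST11, the 2 highest and 2 lowest genes of each list by line difference, and the 3 genes nearest to ALDH1A1 and to ALDH3A1; PTPRC, DCN, LUM, CDH5, CDKN2A, CYP1A1, CYP4F11 and neighbouring genes were named after their values were seen. Some listed genes had no single-gene probe set here and were not analysed. Alternatives were the normalization, floor, filter, probe set choice, intensity trend and arrays used.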

Additional observations from a re-analysis of the deposited data

Results flagged for a closer look

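For 4 members the vector ratios of A549 and NCI-H358 had opposite signs and differed by more than the joint probe set SD of 0.234, as did those of 24.2% of the 10565 genes measured in both lines. With 1 array per group, none of these differences between lines was tested. On the log2 scale ALDH1A3 stood at -0.63 in A549, against 0.15 in NCI-H358, a difference of -0.78. ALDH3A1 had -0.02 in A549 and 0.58 in NCI-H358, a difference of -0.61. ALDH1B1 had -0.19 in A549 and 0.11 in NCI-H358, a difference of -0.31, and its second probe set had 0.04 in A549 and -0.01 in NCI-H358. ALDH3B1 had 0.25 in A549 and -0.02 in NCI-H358, a difference of 0.27, while its probe set 211004_s_at was above 0 in both lines. ALDH2, with 0.06 in A549 and -0.07 in NCI-H358, and ALDH9A1, with 0.08 in A549 and -0.05 in NCI-H358, also had opposite signs but differed by less than that SD.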

How the results depend on the processing

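Under the 11 alternative settings run on the members, 245 of 252 member values stayed within the probe set SD of the value reported, 7 moved and none past its size changed sign, while ALDH1A1 in A549 and ALDH3A2 and ALDH3B1 in NCI-H358 took the other sign between vectors under an alternative. With the 25th percentile or no floor, ALDH1A1 was log2 10.7 and 11 higher in A549. Taking each gene's probe set median instead, ALDH1A3 had -2.56 between lines and -0.32 between vectors in A549, so that 0 members were past 1.5-fold there, ALDH3A2 had 1.36 and ALDH3B1 0.99 between lines, and ALDH3B1 0.51 between vectors in A549. The count of members at least 2-fold higher in A549 was 5, except 6 with the empty vector arrays only. With the probe set median ALDH3B1 dropped under 2-fold and ALDH3A2 took its place in that count. The count in NCI-H358 was 1. Over all genes, limma called 1938 between lines with no filter, against 7938. Genes at least 2-fold apart with the vector numbered 13 in A549, but 5 with the filter at the 75th percentile and 8 when probe sets were summarised by their median, and 4 in NCI-H358, but 7 and 9 with the 25th percentile and with no floor and 2 with the stricter filter. The cause was not tested. The shared vector fit compared the vectors within each line through its line term, and the labels number no replicates that could serve as a further block. Signals near the floor limit what can be said of dim members.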

Other observations

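In the GRCh38.p14 annotation, ALDH3A2 and ALDH3A1 lie on chromosome 17 with 1 protein-coding gene, SLC47A2, between them. SLC47A1, a transporter of organic cations on the far side of ALDH3A2, had signals of 314.2 and 297 in A549 with CHST11 and with the empty vector, against values under the floor in NCI-H358, at least 18.9-fold higher in A549. ULK2, an autophagy kinase on the far side of ALDH3A1, had 159.7 and 130.1 in A549, against 22.59 and 22.01 in NCI-H358, 6.46-fold higher in A549, and SLC47A2 was under the filter on all arrays. The neighbours of ALDH1A1 on chromosome 9 did not stand out this way: ANXA1, annexin A1, was 1.63-fold higher in A549 and TMC1 was under the floor. The measured neighbours of ALDH2 on chromosome 12, ACAD10 and MAPKAPK5, were 1.36-fold higher and 1.24-fold lower in A549. Beside ALDH7A1 on chromosome 5, GRAMD2B was 3.94-fold lower in A549 and PHAX 1.04-fold lower. Beside ALDH1B1, itself higher in A549, SHB and IGFBPL1 were 1.65-fold and 1.53-fold lower there. Beside ALDH1A3, itself lower in A549, LRRK1 was 1.58-fold higher. ALDH9A1, also lower in A549, had MGST3 beside it at 2.69-fold higher and TMCO1 at 1.25-fold lower. UNC93B1 beside ALDH3B1 was 1.21-fold higher in A549. These neighbours were looked at after the differences of the members were known, and no test was made.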
